A study of Mus musculus with 9 samples.

Results

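MHC class I antigen presentation genes were followed through 9 RNA-seq libraries of mouse midbrain (mesencephalon). The group was fixed by name and held 10 genes: the class I heavy chains H2-K1, H2-D1, H2-T22 and H2-T23, the light chain B2m, the peptide transporter subunits Tap1 and Tap2, the loading factor Tapbp and the immunoproteasome subunits Psmb8 and Psmb9. Each symbol had 1 row among the 28991 genes of the deposited table, and all 10 passed the filter on low counts that left 17285 genes for testing. The animals were C57BL/6 mice in 3 groups of 3. Controls received saline. The MPTP group received the neurotoxin MPTP by intraperitoneal injection over 7 days, the usual way of producing a parkinsonian mouse. The MPTP+PF4 group received the same MPTP course together with platelet factor 4 (PF4), a chemokine of platelets, given into a vein every 3 days from the start to the end of the experiment. The comparison of MPTP with control asks what the toxin does to midbrain transcripts, and the comparison of MPTP+PF4 with MPTP asks what PF4 adds. The labels give no age, dose or batch.

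MHC class I molecules carry peptides from inside the cell to its surface, where CD8 T cells and natural killer cells read them. Proteasomes cut the peptides, the TAP transporter moves them into the endoplasmic reticulum, tapasin (the product of Tapbp) holds empty class I molecules beside the transporter, and a heavy chain leaves with its peptide only when paired with beta-2-microglobulin (B2m). In resting brain, class I transcripts are known mainly from endothelial cells and microglia, neurons carry little, and interferons raise most genes of the pathway together.

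Of the 10 genes, 9 lie within 2.13 Mb of chromosome 17 in the GENCODE annotation of the GRCm38 build, in the order Tapbp (from 33915899), H2-K1, Psmb9, Tap1, Psmb8, Tap2, H2-D1, H2-T23 and H2-T22 (to 36042747). B2m lies apart on chromosome 2, at 122147686 to 122153083. Psmb9 (34181987 to 34187764, minus strand) and Tap1 (34187553 to 34197225, plus strand) overlap at their starts on opposite strands. Whether the counting used strand is not given in the sources used here, and reads from that overlap cannot be told apart. The class I heavy chain genes are also close copies of each other, and the authors' counting could split reads between them, so the values of H2-K1, H2-D1, H2-T22 and H2-T23 are uncertain to that extent.

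The promoters of H2-K1, H2-D1, B2m and Tap1 are shown as examples from the group. RefSeq promoter windows of the GRCm38.p6 build (250 bases before to 50 bases after the start) matched 9 of the 10 genes, all but Tap2. The 250 bases before each start are printed 5′ to 3′ on the strand of the gene, and capitals mark every match to a searched motif on either strand. H2-K1 covers chr17:34000348-34000597 on the minus strand and is the first of 2 windows listed for the gene. H2-D1 covers chr17:35262844-35263093, B2m covers chr2:122147437-122147686 and Tap1 covers chr17:34187306-34187555, all on the plus strand.
H2-K1: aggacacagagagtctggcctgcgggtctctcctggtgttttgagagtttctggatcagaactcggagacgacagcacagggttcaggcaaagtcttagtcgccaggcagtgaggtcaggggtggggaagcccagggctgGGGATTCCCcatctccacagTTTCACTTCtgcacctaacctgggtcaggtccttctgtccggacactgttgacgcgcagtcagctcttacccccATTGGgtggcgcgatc
H2-D1: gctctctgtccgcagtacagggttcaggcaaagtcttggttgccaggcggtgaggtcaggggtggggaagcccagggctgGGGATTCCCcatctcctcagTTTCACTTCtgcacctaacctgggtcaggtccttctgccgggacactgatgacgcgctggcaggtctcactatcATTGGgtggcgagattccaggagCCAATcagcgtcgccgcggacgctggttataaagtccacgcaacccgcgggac
B2m: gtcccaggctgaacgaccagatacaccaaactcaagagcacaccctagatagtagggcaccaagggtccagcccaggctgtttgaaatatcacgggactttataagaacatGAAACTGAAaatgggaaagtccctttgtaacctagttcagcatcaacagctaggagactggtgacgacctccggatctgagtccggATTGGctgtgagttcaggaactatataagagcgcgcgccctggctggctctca
Tap1: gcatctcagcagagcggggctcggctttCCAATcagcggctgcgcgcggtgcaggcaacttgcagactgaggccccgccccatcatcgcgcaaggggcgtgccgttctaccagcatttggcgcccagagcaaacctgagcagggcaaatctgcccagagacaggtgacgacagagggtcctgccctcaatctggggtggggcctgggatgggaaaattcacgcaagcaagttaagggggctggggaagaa

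The letters GGGANTCCC, the core of an NF-kB element in the class I enhancer known as enhancer A, were found in the windows of H2-K1 (110 bases before the start) and H2-D1 (170 bases before the start) and in no other window of the group. Over all 32851 windows of the same length, 0.767% held that motif. Interferon-stimulated response elements were searched as GAAANNGAA and, in a second form added after the windows had been read, as GAANNGAAA. The first form was in the windows of H2-T22, H2-T23 and B2m against 8.56% of all windows, and the second was in those of H2-K1 and H2-D1 against 7.52%. The Y box ATTGG, a site of the class I promoter module, was in 8 of the 9 windows, all but that of Psmb8, against 37.4% of all windows. H2-K1 and H2-D1 shared an identical run of 47 bases that contains the NF-kB letters. Their RefSeq starts do not lie at matching places, so the distances of 110 and 170 bases are not comparable. The second Y box is 9 bases after the start in H2-K1 and 53 bases before it in H2-D1. The windows of Tap1 and Psmb9 overlap by 275 bases on opposite strands, so the printed Tap1 promoter is also most of the Psmb9 promoter, read from the other strand. A match describes the letters of a window and says nothing of binding.

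The 9 libraries did not all look alike in tissue. Slc6a3, the dopamine transporter of midbrain dopaminergic neurons, was at 574, 526 and 102 CPM (counts relative to the library total, scaled for library composition by TMM) in control 2, control 3 and MPTP+PF4 2, but never exceeded 0.958 CPM elsewhere. Th, the dopamine-synthesis enzyme, reached 195, 176 and 51.7 CPM there, against 4.95 to 18.1 CPM in the remaining 6. Drd1 and Adora2a, receptors of striatal neurons, ran the other way, with Drd1 between 4.04 and 7.74 CPM in the 3 and between 44.5 and 398 CPM in the remaining 6. The libraries labelled control 2, control 3 and MPTP+PF4 2 therefore carried Slc6a3, which the other 6 nearly lacked, and more Th. MPTP 2 lay between in Th (18.1 CPM) and Drd1 (44.5 CPM). Apart from control 1, the libraries low in Slc6a3 all came from animals given MPTP, and the reason for the low values was not tested. The class I results are given below with and without control 2, control 3 and MPTP+PF4 2. Total counts ran from 32216850 to 36039211 per library, and the 10 class I genes took 0.0182% to 0.0588% of them. No pair of libraries agreed within sampling noise.

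H2-K1 and H2-D1 are the classical heavy chains of this mouse strain, which present peptides to CD8 T cells. H2-K1 was at 50.1, 181 and 79.7 CPM in controls 1, 2 and 3, at 38.4, 27.8 and 40.8 CPM in the MPTP libraries and at 29.0, 59.7 and 23.8 CPM in the MPTP+PF4 libraries. Every control was above every MPTP library, the control 2 value stood far above the rest, and MPTP+PF4 2 overlapped the controls. H2-D1 was at 73.8, 87.1 and 60.9 CPM in the controls, at 60.4, 63.3 and 65.3 CPM in the MPTP libraries and at 41.7, 110 and 32.3 CPM in the MPTP+PF4 libraries. Its control and MPTP values overlapped, and its highest and lowest values over all 9 libraries were both in the MPTP+PF4 group. Per transcript length, the ratio of H2-K1 to H2-D1 in FPKM (fragments per kilobase, scaled to library size) was 2.61 in control 2 and 1.62 in control 3, and lay between 0.532 and 0.904 in the other 7 libraries, MPTP+PF4 2 among them. The transcript that was higher of the pair therefore differed between controls 2 and 3 and all other libraries.

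H2-T22 and H2-T23 are nonclassical heavy chains; in mice, H2-T22 is a ligand of some gamma-delta T-cell receptors, and H2-T23 makes the Qa-1 molecule that natural killer cells recognise through inhibitory receptors. H2-T22 was at 17.1, 32.5 and 23.2 CPM in the controls, at 13.6, 16.4 and 11.7 CPM in the MPTP libraries and at 15.7, 18.4 and 9.003 CPM in the MPTP+PF4 libraries. All 3 controls were above all 3 MPTP libraries, with control 1 at 17.1 CPM just above MPTP 2 at 16.4 CPM. H2-T23 was at 11.8, 10.2 and 6.31 CPM in the controls, at 12.01, 10.6 and 13.8 CPM in the MPTP libraries and at 9.99, 18.8 and 7.16 CPM in the MPTP+PF4 libraries. It was the gene of the group whose lowest library was a control, control 3, and its groups overlapped in every comparison.

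B2m, the light chain shared by all class I molecules, was at 132, 188 and 107 CPM in the controls, at 121, 105 and 127 CPM in the MPTP libraries and at 106, 202 and 93.5 CPM in the MPTP+PF4 libraries. It overlapped between all groups and had the narrowest spread of the 10 genes, with 2.16 times as much in the highest library as in the lowest. The corresponding ratio was 7.62 for H2-K1, 6.75 for Psmb9 and 5.69 for Psmb8, and 2.37 to 3.78 for the other 6.

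Tap1 and Tap2 form the TAP transporter, and Tapbp bridges it to class I molecules. Tap1 was at 4.93, 7.08 and 4.52 CPM in the controls, at 5.00, 3.83 and 3.93 CPM in the MPTP libraries and at 1.88, 5.93 and 1.91 CPM in the MPTP+PF4 libraries. MPTP+PF4 1 and 3 were below all 7 other libraries, while MPTP+PF4 2 was above all but 1. Tap2 was at 8.21, 11.03 and 8.74 CPM in the controls, at 9.62, 7.88 and 7.88 CPM in the MPTP libraries and at 7.5, 10.6 and 4.65 CPM in the MPTP+PF4 libraries. Its groups overlapped, and its lowest value was in MPTP+PF4 3. Tapbp was at 33.0, 76.9 and 43.3 CPM in the controls, at 28.4, 30.4 and 27.8 CPM in the MPTP libraries and at 22.9, 34.5 and 21.4 CPM in the MPTP+PF4 libraries. The 3 MPTP values of Tapbp lay close together and below every control, with control 1 the nearest.

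Psmb8 and Psmb9 are catalytic subunits that replace Psmb5 and Psmb6 in the immunoproteasome, whose cuts favour peptides that class I molecules bind. Psmb8 was at 3.84, 12.6 and 7.86 CPM in the controls, at 4.56, 3.04 and 3.93 CPM in the MPTP libraries and at 3.50, 5.13 and 2.21 CPM in the MPTP+PF4 libraries. Controls 2 and 3 were above the other 7 libraries, and control 1 lay within the MPTP range. Psmb9 was at 2.49, 4.97 and 2.43 CPM in the controls, at 1.54, 1.48 and 2.34 CPM in the MPTP libraries and at 0.738, 2.38 and 0.736 CPM in the MPTP+PF4 libraries. The Psmb9 groups did not overlap between control and either treated group, but controls 1 and 3 exceeded MPTP+PF4 2 by little. MPTP+PF4 1 and 3 rested on 24 and 22 Psmb9 reads. Per transcript length, Psmb8 was at 0.0242 to 0.0563 times the level of Psmb5, and Psmb9 at 0.00671 to 0.0215 times that of Psmb6, so the constitutive subunits were the far more abundant ones in every library.

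**Figure D1:**
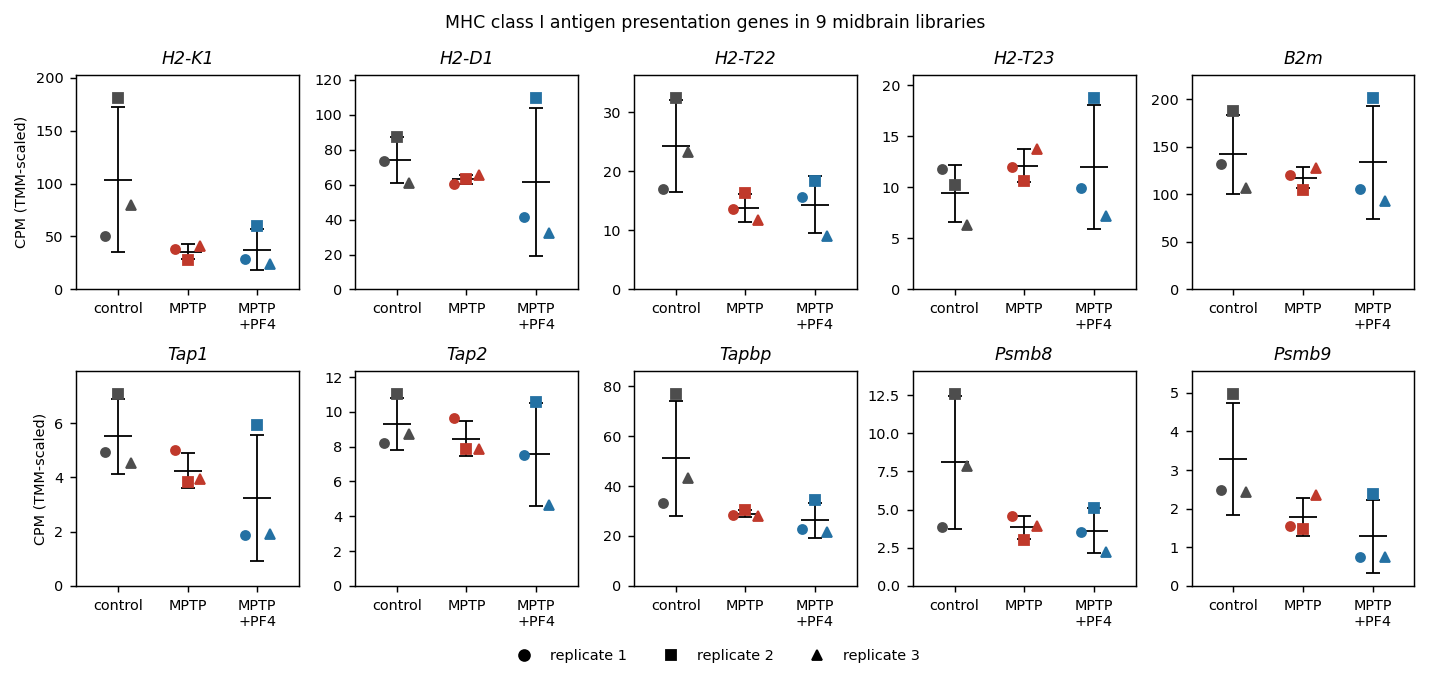
Level of each of the 10 class I genes in TMM-scaled CPM (y axis, linear and starting at 0) in the 3 libraries of each group (x axis); points are libraries with the marker giving the replicate number, horizontal lines are group means and bars are 1 SD (n = 3). Control 2 is the highest library for 7 genes, and MPTP+PF4 2 for H2-D1, H2-T23 and B2m.

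Levels between genes can be set side by side only per transcript length. On the FPKM scale B2m had a mean of 146 over the 9 libraries, H2-K1 34.9, H2-D1 32.3, Tapbp 12.6, H2-T22 10.04, H2-T23 7.31, Psmb8 3.03, Tap2 2.36, Psmb9 1.52 and Tap1 1.41. B2m did not overlap in range with H2-D1 (95.9 to 233 against 14.6 to 55.6 FPKM), while its lowest library was below the highest H2-K1 library at 102 FPKM. H2-K1 and H2-D1 overlapped, H2-D1 and Tapbp overlapped, and so did Tapbp, H2-T22 and H2-T23 among themselves and Psmb8, Tap2, Psmb9 and Tap1 among themselves. The lowest H2-T23 value, 4.13 FPKM, was also below the highest Psmb8 value of 7.02 FPKM.

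**Figure D2:**
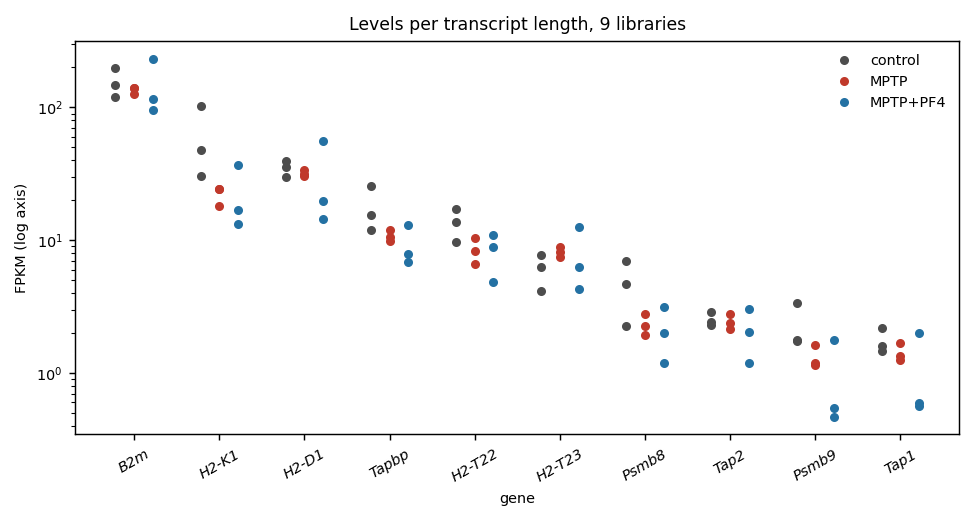
FPKM of each gene (y axis, log scale) for the 10 genes ordered by their mean over 9 libraries (x axis); each point is 1 library and colour gives the group. B2m, at 95.9 to 233 FPKM, lies above the other genes except H2-K1 in control 2, and Psmb8, Tap2, Psmb9 and Tap1 form the lowest set.

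With MPTP, 9 of the 10 class I genes had lower mean levels than in controls, H2-T23 being the one with a higher mean, but no difference passed the threshold. The median log2 fold change of the 10 genes was -0.59, against 0.01 for all genes tested, and 49.1% of all genes tested had a fold change below 0. In edgeR's quasi-likelihood test with Benjamini-Hochberg adjustment over all 17285 genes, 0 genes reached an adjusted p under 0.05 (0%), and the smallest adjusted p was 0.261. At an unadjusted p under 0.05, 920 genes were higher and 2234 were lower (12.9% lower), and 4 of the 10 class I genes were among the lower ones. Groups did not overlap, with all MPTP libraries lower, for 9.19% of all genes tested and for 4 class I genes, H2-K1, H2-T22, Tapbp and Psmb9. In bulk tissue, fewer cells of a type and less RNA per cell cannot be told apart.

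H2-K1 had the lowest fold change of the group. It was at 104 ± 68.7 CPM in controls and 35.6 ± 6.91 CPM after MPTP (mean ± SD, n = 3 each). The log2 fold change was -1.54, with a standard error (SE) of 0.499 and an adjusted p of 0.261 in edgeR. Psmb8, the immunoproteasome subunit, stood at 8.09 ± 4.37 against 3.84 ± 0.766 CPM, a log2 fold change of -1.07 (SE 0.460). Tapbp stood at 51.1 ± 22.9 against 28.9 ± 1.35 CPM, a log2 fold change of -0.82 (SE 0.314). H2-T22 stood at 24.3 ± 7.77 against 13.9 ± 2.37 CPM, a log2 fold change of -0.81 (SE 0.317). The adjusted p of Psmb8 was 0.269, of Tapbp 0.264 and of H2-T22 0.265 in edgeR. Psmb9, whose groups did not overlap, had a log2 fold change of -0.88 (SE 0.538, unadjusted p = 0.136 in edgeR). The other lower means were less than their SE from 0, with log2 fold changes of -0.37 for Tap1, -0.27 for B2m, -0.23 for H2-D1 and -0.14 for Tap2. H2-T23 had a log2 fold change of 0.36 (SE 0.369). DESeq2 called 287 genes (1.66%) in the same comparison and none of the 10, with adjusted p-values of 0.0731 for H2-K1 and 0.158 for Tapbp as the smallest of the group. In the authors' deposited table, H2-K1 and Psmb8 carried the word down in the column that sets MPTP against control, and the other 8 carried the word normal. In that column of the authors' deposited table, 5.84% of the 14790 genes with a word were marked down. The file headers tie such words to DESeq2 with a p of 0.05 and 2-fold. The DESeq2 calls above used an adjusted p under 0.05 instead, so the 2 rules differ.

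The calls for MPTP against control turned on which controls entered. Without control 1, the control with almost no Slc6a3, edgeR called 4577 genes, and 13.96% of the genes tested were called lower. H2-K1 (log2 fold change -1.87, edgeR adjusted p = 0.0263), Tapbp (-1.06, adjusted p = 0.0297), Psmb8 (-1.41, adjusted p = 0.0340) and H2-T22 (-1.004, adjusted p = 0.0460) then passed. Without control 2, 0 genes were called, none of the 10 was lower at an unadjusted p under 0.05, against 4.32% of all genes tested, and the median of the 10 was -0.28. Omitting MPTP+PF4 2 and controls 2 and 3 leaves control 1 alone against the 3 MPTP libraries and assumes that it varies like the other groups. EdgeR then called 1 gene, none of the 10, and their median was -0.21. In that setting H2-K1 had a log2 fold change of -0.49 and Psmb8 one close to 0. Group and tissue content cannot be told apart in these libraries.

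With PF4 added to MPTP, the class I genes stood at means close to those of MPTP alone but with a wider spread. The median log2 fold change of the 10 was -0.06, against 0.02 for all genes tested; 7 of the 10 were below 0, as were 46.6% of all genes tested. No gene was called by edgeR (0%, smallest adjusted p of 1), and at an unadjusted p under 0.05 there were 112 genes higher and 235 lower (1.36% lower), none of them class I genes. No class I gene had all MPTP+PF4 libraries below all MPTP libraries, against 4.07% of all genes tested. Psmb9 had the lowest fold change, -0.47 (95% interval -1.70 to 0.76), followed by Tap1 at -0.39 (-1.44 to 0.66), and B2m the highest, 0.19 (-0.53 to 0.90). H2-K1 averaged 37.5 ± 19.4 CPM in MPTP+PF4 and 35.6 ± 6.91 CPM in MPTP (n = 3 each; log2 fold change 0.07, 95% interval -1.04 to 1.18). These intervals allow changes of more than 2-fold in either direction for H2-K1, so the test does not show that the groups were alike. DESeq2 called 16 genes (0.0926%) and none of the 10, and in the authors' deposited table all 10 carried the word normal, while 1.2% of the 14655 genes with a word were marked down and 0.205% up.

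The means hid a split within the MPTP+PF4 group. The SD of H2-D1 was 69.0% of the mean with PF4 and 3.93% in MPTP alone, that of Tap1 was 72.1% against 15.3%, and that of B2m was 44.3% against 9.69%. MPTP+PF4 2 was the highest of the 3 for all 10 genes. Without it, all 10 fold changes of MPTP+PF4 against MPTP were below 0 (49.6% of all genes tested) with a median of -0.45, and 3 of the 10 had an unadjusted p under 0.05 in the lower direction (2.05% of all genes tested). In that setting Psmb9 was at -1.27 (SE 0.471), Tap1 at -1.17 (SE 0.325) and H2-D1 at -0.77 (SE 0.209), each with an edgeR adjusted p of 1. Without MPTP+PF4 3 instead, 3 of 10 were below 0 and the median was 0.20. Leaving out controls 2 and 3 together with MPTP+PF4 2 put all 10 below 0 again (49.7% of all genes tested), with a median of -0.45.

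Against controls, the MPTP+PF4 libraries had lower means for 9 of the 10 genes, with H2-T23 again the one with a higher mean. This comparison shares its controls with that of MPTP, so the resemblance between them is not independent. The median log2 fold change was -0.76, against a value close to 0 for all genes tested, and 50.2% of all genes tested were below 0. No gene was called by edgeR (0%, smallest adjusted p of 0.268), while 1080 genes were higher and 2091 lower at an unadjusted p under 0.05 (12.1% lower). The lower ones included H2-K1 at -1.47 (SE 0.498), Psmb9 at -1.35 (SE 0.546), Psmb8 at -1.16 (SE 0.461), Tapbp at -0.96 (SE 0.315) and H2-T22 at -0.76 (SE 0.317), each with an edgeR adjusted p of 0.268. Only Psmb9 among the 10 had all MPTP+PF4 libraries below all controls, against 6.78% of all genes tested. DESeq2 called 10 genes (0.0579%) and none of the 10. In the authors' deposited table H2-K1, Psmb8 and Psmb9 were marked up in the column that names MPTP+PF4 before control, as were 4.77% of the 14682 genes with a word there. All 3 were lower with MPTP+PF4 than in controls in the counts, so that word there stands for higher levels in control.

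Here too the calls depended on single libraries. Without control 1, edgeR called 4539 genes and 3 of the 10, H2-K1, Tapbp and Psmb8, while 13.2% of the genes tested were called lower. Without control 1 and MPTP+PF4 2 together, 5980 genes were called and 7 of the 10, with the median of the 10 at -1.29 and 15.9% of the genes tested called lower. The 7 were H2-K1, H2-D1, H2-T22, Tap1, Tapbp, Psmb8 and Psmb9. Without controls 2 and 3 and MPTP+PF4 2, where control 1 stands alone, all 10 were below 0, against 48.9% of all genes tested. The median of the 10 was then -0.52, against 0.01 for all genes tested. Without control 2 the median was -0.51, and 2.95% of all genes tested were lower at an unadjusted p under 0.05 in edgeR. Without MPTP+PF4 3 the median was -0.50, and 3.6% were lower at that p. No class I gene was among the lower ones without control 2 or without MPTP+PF4 3.

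**Figure D3:**
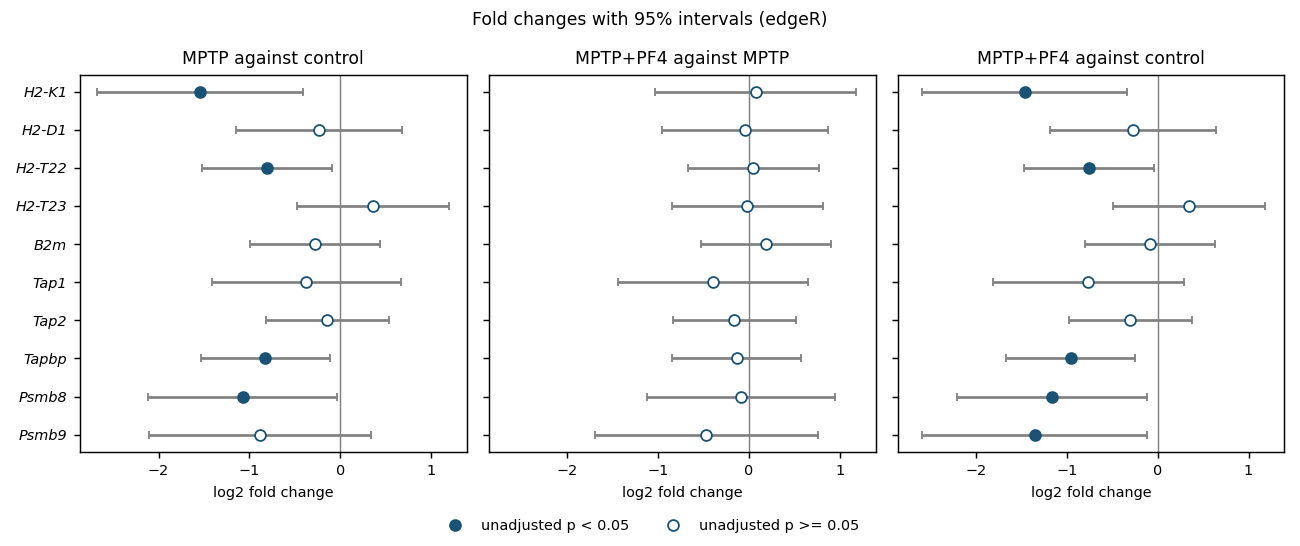
Log2 fold changes from edgeR (x axis) with 95% intervals (bars) for the 10 class I genes (y axis) in the 3 comparisons; filled points have an unadjusted p under 0.05 and none has an adjusted p under 0.05. Both comparisons with controls show 9 genes below 0 and H2-T23 above, and the points of MPTP+PF4 against MPTP lie between -0.47 and 0.19.

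Across single libraries the class I genes stood highest on average in control 2 and lowest in MPTP+PF4 3. Relative to each gene's mean over the 9 libraries, the average of the 10 genes was 0.92 log2 units in control 2 and 0.43 in MPTP+PF4 2, and -0.86 in MPTP+PF4 3 and -0.50 in MPTP+PF4 1, with the other 5 libraries between -0.21 and 0.20. All 10 were above their means in MPTP+PF4 2 and below them in MPTP+PF4 1 and 3, and 9 of 10 were above in control 2, while the other 5 libraries held genes on both sides. Control 2 was the highest library for H2-K1, H2-T22, Tap1, Tap2, Tapbp, Psmb8 and Psmb9, and MPTP+PF4 2 for H2-D1, H2-T23 and B2m. MPTP+PF4 3 was the lowest library for 8 genes, MPTP+PF4 1 for Tap1 and control 3 for H2-T23. Among all genes tested, control 2 was the highest library for 28.6% and MPTP+PF4 3 the lowest for 20.8%, so extremes in both libraries were common. MPTP+PF4 1 and 3 were the 2 lowest libraries for 5 of the 10 genes, H2-D1, Tap1, Tap2, Tapbp and Psmb9, against 4.9% of all genes tested; that count was chosen after the values were seen. With library totals in place of composition scaling, the figures were 7 of 10 and 8.1%.

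The profiles of the 10 genes differed among themselves. As a measure of likeness, the root mean square difference between centred log2 CPM over the 9 libraries was smallest for H2-T22 and Tapbp (0.217), B2m and Tap2 (0.242), B2m and H2-D1 (0.2495), H2-D1 and Tap2 (0.2586) and H2-K1 and Psmb8 (0.2594). It was largest for H2-K1 and H2-T23 (0.954). H2-K1, Psmb8, Psmb9 and Tapbp had their peak in control 2 at 1.23 to 1.92 log2 units above their means, while H2-D1 and B2m peaked in MPTP+PF4 2 at 0.81 and 0.67. In control 3, H2-K1 and Psmb8 were 0.74 and 0.78 above their means, and H2-T23 and B2m were at -0.75 and -0.25 relative to theirs.

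**Figure D4:**
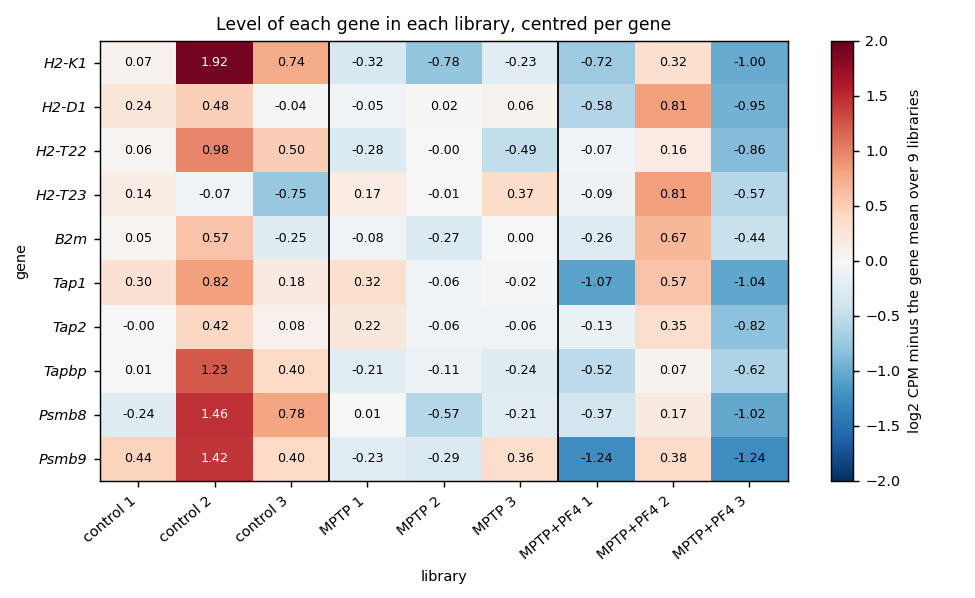
Log2 CPM of each gene (rows) in each library (columns) minus that gene's mean over the 9 libraries; colour and printed value give the difference in log2 units and lines separate the groups. Control 2 and MPTP+PF4 2 are above the mean for nearly all genes, MPTP+PF4 3 is below it for all 10, and H2-K1 in control 2 has the largest value, 1.92.

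Outside the group, the genes nearest to H2-K1 in profile were Fxyd5, a regulator of the sodium pump, Gkn3, Myl9, a smooth muscle myosin light chain, Ly6a, a surface protein of mouse endothelial cells, and Rnaseh2c, with root mean square differences of 0.199 to 0.255. Myl9, for example, was at 23.6, 124 and 39.2 CPM in the controls and between 13.9 and 27.2 CPM in all treated libraries. The genes nearest to B2m were Mgst1, Adora2b, Hmox1, Samd9l and Grn, with differences of 0.119 to 0.188. Mgst1, a microsomal glutathione transferase, was at 13.2, 21.1 and 10.5 CPM in the controls, at 14.8, 12.3 and 16.5 CPM in the MPTP libraries and at 11.4, 22.8 and 10.3 CPM in the MPTP+PF4 libraries. Like B2m, it was highest in MPTP+PF4 2 and control 2. These profiles were ranked over 9 libraries among the tested genes outside the group that have an Ensembl identifier, and carry no test.

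Other genes of the pathway were counted by list, and none passed the adjusted threshold in any comparison. Of the other class I and class I-like heavy chains, 13 of 19 were tested, and 9 of the 13 were below 0 with MPTP against control, with a median log2 fold change of -0.42. H2-Q7 was at 1.63, 7.05 and 2.70 CPM in the controls and at 0.632, 0.438 and 1.16 CPM after MPTP, a log2 fold change of -2.35 (SE 0.878). H2-Q6, a close copy of it, had -1.91 (SE 0.801), and Fcgrt, the neonatal Fc receptor, which also pairs with B2m, had -1.195 (SE 0.407). H2-Bl had -1.37 (SE 0.591) at no more than 1.09 CPM. All 4 had their highest value in control 2.

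Of the genes for the immunoproteasome cap, its assembly and its remaining catalytic subunit, 4 of 5 were below 0 with MPTP, with a median of -0.78. Psmb10, the third immunoproteasome subunit, was at 18, 81.2 and 49.6 CPM in the controls, at 14.3, 21.04 and 11.2 CPM in the MPTP libraries and at 15.95, 25.9 and 6.13 CPM in the MPTP+PF4 libraries. As with Psmb8, controls 2 and 3 were above the other 7 libraries, and the log2 fold change of MPTP against control was -1.68 (SE 0.615). Pomp, the chaperone of proteasome assembly, had -0.88 (SE 0.274), and Psme2 and Psme1, the subunits of the interferon-inducible proteasome cap, had -0.78 (SE 0.354) and -0.50 (SE 0.375). Psme3, another cap subunit of the list, had 0.14 (SE 0.137). Of the constitutive subunits, Psmb6 had -0.67 (SE 0.268), Psmb5 -0.40 (SE 0.254) and Psmb7 0.12 (SE 0.180), and the other 11 subunits of the core particle had a median of -0.19, with Psmb3 at -0.77 (SE 0.268). Control 2 had the highest summed CPM of these constitutive lists as well.

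The peptide loading and trimming list, which holds general chaperones and peptidases, had 8 of its 13 genes above 0 with MPTP, with a median of 0.15. Sppl2a, a protease of the signal peptide peptidase family, had a log2 fold change of 0.78 (SE 0.286) with MPTP+PF4 against control. Spcs1, a signal peptidase subunit, had -0.47 (SE 0.195) with MPTP against control. Calr, the chaperone calreticulin of the loading complex, was at 318 to 380 CPM in controls and 363 to 389 CPM after MPTP.

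Genes upstream of class I transcription went both ways. Of 17 regulators, 9 were above and 8 below 0 with MPTP, with a median of 0.05, and their summed CPM lay between 337 and 371 in all 9 libraries. Rela, an NF-kB subunit, had a log2 fold change of -0.62 (SE 0.239) with MPTP against control, and Nfkb1, another, had 0.41 (SE 0.152). Nlrc5, the class I transactivator, was at 1.23, 3.07 and 2.23 CPM in the controls, at 1.98, 1.53 and 1.67 CPM in the MPTP libraries and at 0.799, 2.38 and 0.736 CPM in the MPTP+PF4 libraries. Like Psmb9 and Tap1, it was lowest in MPTP+PF4 1 and 3; it was named after its values were seen. Ifng and Ifnb1, the interferon ligands in the list, had 0 counts in all 9 libraries, which allows up to 0.0832 to 0.0931 CPM in a library (3 counts, counting error only). Jak1, a kinase of interferon receptors, had a log2 fold change of 0.46 (SE 0.187) with MPTP against control.

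Interferon-stimulated genes stood beside the class I genes in the libraries at both ends. Of the 27 in the list, 3 of which are class I members, 21 were below 0 with MPTP against control, with a median of -0.40, and 15 were below 0 with MPTP+PF4 against MPTP, with a median of -0.09. For the 24 outside the group, the centred log2 mean was 0.71 in control 2, 0.84 in MPTP+PF4 2, -0.50 in MPTP+PF4 1 and -0.93 in MPTP+PF4 3. MPTP+PF4 1 and 3, a pair chosen after the values were seen, were the 2 lowest libraries for 10 of these 24, against 4.9% of all genes tested. With library totals alone the figures were 12 of 24 and 8.1%. The 10 included Ifitm3, Bst2, Igtp, Irgm1 and Iigp1. Igtp, an interferon-induced GTPase, was at 9.62, 19.9 and 9.81 CPM in the controls, at 14.02, 9.25 and 13.3 CPM in the MPTP libraries and at 3.50, 14.4 and 2.78 CPM in the MPTP+PF4 libraries. MPTP+PF4 1 and 3 lay well below the other 7 libraries. Rsad2, an antiviral enzyme, had a log2 fold change of -1.51 (SE 0.504) with MPTP against control, and Cxcl10, an interferon-induced chemokine, was at 3.84 CPM in MPTP+PF4 2 and at 0.268 to 0.609 CPM elsewhere. The interferon-stimulated genes named beyond Rsad2 and Cxcl10 were chosen after their values were seen.

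**Figure D5:**
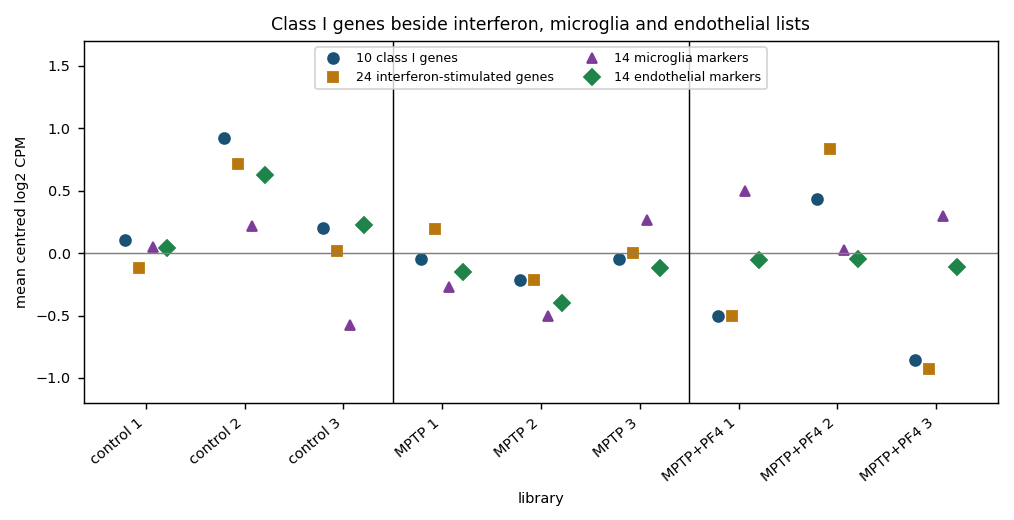
Mean over each list of log2 CPM minus the gene's mean over 9 libraries (y axis) for each library (x axis), for the 10 class I genes, 24 interferon-stimulated genes outside the group, 14 microglia markers and 14 endothelial markers. Class I and interferon-stimulated genes are both lowest in MPTP+PF4 3 and MPTP+PF4 1, where the microglia markers are at 0.29 and 0.50.

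Markers of the cells that carry class I moved in part with these values, and their part in the results was not tested. All 14 endothelial markers were detected in every library, and their summed CPM was 576 to 861 in controls, 410 to 522 after MPTP and 535 to 569 with MPTP+PF4, highest in control 2. Of the 14, 13 were below 0 with MPTP against control, with a median log2 fold change of -0.46; Cldn5, a tight junction protein, had -1.74 (SE 0.522) and was at 21.7, 128 and 64.8 CPM in the controls. The summed pericyte and smooth muscle markers (12 of 12 detected) were at 385 to 860 CPM in controls and 274 to 362 CPM after MPTP, and those of meningeal fibroblasts (12 of 12) at 89.1 to 372 and 56.1 to 179 CPM. Erythrocyte transcripts summed to 6580 CPM in control 2 against 49.3 to 794 CPM elsewhere. In each of these 4 lists control 2 was the highest library. Mature oligodendrocyte markers (12 of 12) summed to 16890 to 27330 CPM in controls and 7831 to 16380 CPM after MPTP.

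The 14 microglia markers, all detected in every library, followed another order. They summed to 329 to 642 CPM in controls, 429 to 721 CPM after MPTP and 630 to 812 CPM with MPTP+PF4, highest in MPTP+PF4 1 and 3, the libraries where Tap1, Psmb9 and H2-D1 were lowest. All 14 were above 0 with MPTP+PF4 against MPTP, with a median log2 fold change of 0.42 and none called. Cx3cr1, the microglial fractalkine receptor, was at 55.8, 36.1 and 56.3 CPM in the MPTP+PF4 libraries.

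Markers of cells that read class I were mostly near the limit of detection. Of 15 T-cell and natural killer markers, 14 were in the table and 2, Lck and Cd4, passed the filter. Cd4 was at 35.98 to 93.3 CPM in 5 of the 6 libraries with little Slc6a3, at 3.39 CPM in MPTP 2 and at no more than 0.784 CPM in the other 3, while Cd3e, a defining T-cell gene, was at no more than 0.151 CPM anywhere. Cd8a and Cd8b1, the coreceptor that binds class I, were at no more than 0.271 and 0.301 CPM, Ncr1 had 0 counts in all libraries, and the summed leukocyte and border macrophage markers were at 7.03 to 22.4 CPM, highest in control 2. Gzma, a granule protease, was at 1.45 CPM in control 2 and at no more than 0.224 CPM in the other 8.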

How the data were processed

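RNA from the midbrain of 9 mice was sequenced from 1 µg of total RNA per library with an mRNA library kit, per the labels' protocols. The authors deposited 1 table of whole-number read counts per gene for each sample, and of FPKM values, which the authors normalised for gene length and sequencing depth; both kinds of column are named in the file headers. For each pair of groups the deposited file also gives the authors' verdict as a word (up, down or normal), which the file headers tie to DESeq2, a p of 0.05 and 2-fold. The submitters' processing notes name the build mm9; aligner, counting program and strand setting were not stated in the sources used here. The table had 29001 lines, of which 10 with broken annotation fields were left out. Gene positions came from GENCODE release M21 (GRCm38), matched by identifier, and no coordinate was converted.

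The quasi-likelihood test of edgeR 4.0.16 (R 4.3.3) was run on the counts with TMM scaling, robust estimation and the filterByExpr filter. A single fit held all 9 samples with the group as its term. P-values were adjusted by Benjamini-Hochberg over all 17285 tested genes, with a threshold of 0.05. The common biological coefficient of variation was 0.394. CPM uses TMM-scaled totals, and centred log2 CPM a prior count of 2. At these totals 3 counts correspond to 0.0832 to 0.0931 CPM per library, which covers counting error only. The p-values rest on the spread between the 3 animals within each group, estimated over all 9 samples together. That spread includes the differences in tissue content within groups. The fits were first tested on simulated counts.

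The members and lists were chosen with earlier results of these data known. All 10 members are named, of each related list its counts and up to 4 genes with the smallest unadjusted p (not all are printed), 4 genes that check the tissue, and the 5 genes nearest in profile to H2-K1 and to B2m. Others were named outside this rule, among them Calr, Psme3 and Nlrc5. Untested genes such as Cd3e, Cd8a, Cd8b1, Gzma, Ifng and Ifnb1 had no p to rank. Alternatives were DESeq2 1.42.0, relative log expression or plain library totals as the scaling, no low-count filter, a filter of 1 CPM in at least 3 samples, fits restricted to the 6 samples compared, a block on the replicate number, each replicate left out, and the libraries that stand apart in Slc6a3 left out. Whether the replicate numbers pair the samples is not settled, and the main fit did not use them. A further motif that was searched is not reported here.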

Additional observations from a re-analysis of the deposited data

How the results depend on the processing

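The count of 0 genes past the threshold in edgeR was the same under both other scalings, both other filters, the fit on 6 samples and the replicate block, in all 3 comparisons. DESeq2 called 287 genes for MPTP against control, 16 for MPTP+PF4 against MPTP and 10 for MPTP+PF4 against control, none of them class I genes. Leaving out 1 replicate at a time gave 0 to 4577 genes and 0 to 4 class I genes for MPTP against control, 0 for MPTP+PF4 against MPTP, and 0 to 4539 genes and 0 to 3 class I genes for MPTP+PF4 against control; each count above 0 came without control 1. Without control 1 and MPTP+PF4 2, the counts were 5629 genes with 4 class I genes for MPTP against control and 5980 with 7 for MPTP+PF4 against control, whose median over the 10 genes was then -1.29. Without controls 2 and 3 and MPTP+PF4 2, 1 gene was called in each comparison with control. The median over the 10 genes ran from -0.72 to -0.28, from -0.45 to 0.20 and from -1.10 to -0.50 in the 3 comparisons when 1 replicate was left out. The cause of these shifts was not tested.

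Of 540 fold changes of single class I genes under an alternative, 29 changed sign. Those in MPTP+PF4 against MPTP started near 0. There, without control 1 and MPTP+PF4 2, B2m was at -0.25, H2-K1 at -0.45 and H2-T22 at -0.18, and without controls 2 and 3 and MPTP+PF4 2 they were at -0.23, -0.43 and -0.17. Library totals alone put H2-T22 at -0.0192. With 1 replicate left out, B2m ran from -0.24 to 0.38, H2-D1 from -0.77 to 0.26, H2-K1 from -0.43 to 0.31, H2-T22 from -0.17 to 0.30, H2-T23 from -0.50 to 0.24, Psmb8 from -0.43 to 0.17 and Tap2 from -0.48 to 0.0909. In MPTP+PF4 against control the same ranges were -0.51 to 0.17 for B2m, -0.99 to 0.0340 for H2-D1 and -0.13 to 0.61 for H2-T23, and H2-T23 was at -0.46 without controls 2 and 3 and MPTP+PF4 2. Tap2 with MPTP against control was at 0.0411 in that last setting.

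Replicate numbers are shared by the groups, but same-numbered libraries did not deviate together throughout (r from -0.29 to 0.52 over genes). Differently numbered libraries were not set beside them, so this check does not settle whether the numbers pair the animals. With the replicate number as a block, 0 genes were called, the medians over the 10 genes were -0.52, -0.19 and -0.83 in the 3 comparisons, and H2-K1 with MPTP+PF4 against MPTP was at -0.12. Depth limits Psmb9 most, whose lowest library held 22 reads.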
